A study of Saccharomyces cerevisiae with 10 samples.

Results

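The genes described here encode proteins of the mitochondrial ribosome of Saccharomyces cerevisiae. They were taken by name: a probe set counts as a member when its gene symbol in the platform annotation is MRPL, MRPS, MRP or RSM followed by a number and it names 1 S. cerevisiae gene. This gave 66 probe sets for 66 genes, out of 5498 probe sets that name 1 S. cerevisiae gene. All 66 lay above the background level of the arrays on average. The yeast either carried the plasmid prs426GPD-αENaC-HA, which drives the HA-tagged α subunit of the epithelial sodium channel from the strong GPD promoter, or the vector pRSGPD426 without the channel. Both groups grew at 26 °C in selective medium and were taken in mid log phase. Biotin-labelled cRNA was measured on single-colour arrays, 3 for αENaC and 7 for the vector control. The sources used here do not name the host strain. No probe set reads the αENaC transcript, which left the labels unchecked by it.

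The mitochondrial ribosome makes the few proteins that mitochondrial DNA encodes, chiefly core subunits of the respiratory chain and of ATP synthase. Nearly all of its own proteins are encoded in the nucleus, made in the cytosol and imported. Some descend from proteins of the bacterial ribosome, and others exist only in mitochondria. In budding yeast the genes are known to be expressed together, and their mRNAs are classic ligands of the RNA-binding protein Puf3. In RefSeq, 27 of the members carry a small subunit name and 37 a large subunit name. By those names 40 have a bacterial counterpart (names starting with u or b) and 24 are specific to mitochondria (names starting with m). RSM22 and MRP8 carry no ribosomal name there. MRP8 was named from its sequence and is not held to be a ribosomal protein today, and RSM22 is related to methyltransferases.

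The arrays fall into sets by the running numbers in their titles. Set 1 has numbers 1 to 4 and consists of αENaC 1 and 2 with controls 1 and 2. Set 2 has numbers 5 and 6, given to control 3 and αENaC 3. Set 3 has numbers 11 to 14 and consists of controls 4 to 7. The labels do not call these sets batches. Within a set, arrays of 1 group were near-identical across the 5498 probe sets (αENaC 1 with 2 at r = 0.999, control 1 with 2 at 0.998, controls 5 to 7 at 0.997 to 0.998), except control 4. The p-values within set 1 therefore rest on array-to-array spread that could be largely technical. The test over all arrays had no term for the set, so its spread also holds the differences between sets. In both, the number of arrays limits the precision.

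Taken over all 10 arrays, mitochondrial ribosomal protein mRNAs were lower as a group in αENaC yeast than in the controls. The amount was modest, and no single gene carried it past the test. All 66 differences were below 0, against 46.2% of all probe sets tested, and their median was −0.37 on the log2 scale, against 0.02 for all. The median level of the 66 was 0.14, 0.16 and 0.26 on the αENaC arrays 1, 2 and 3. On controls 1 to 3 it was 0.50, 0.44 and 0.29, and on controls 4 to 7 it was 0.37, 0.88, 0.83 and 0.88. So controls 5 to 7 stood above all other arrays, and αENaC 3 and control 3 were close to each other. Because set 3 holds controls only, the difference over all arrays is in part one between sets. The median difference was −0.36 in set 1, which has near-identical arrays in each group. In set 2 it was −0.01, with 35 of the 66 below 0. Confining the contrast to sets 1 and 2 gave −0.22, with 59 below 0. In bulk RNA, fewer cells with the transcripts and less transcript per cell cannot be told apart.

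**Figure D1:**
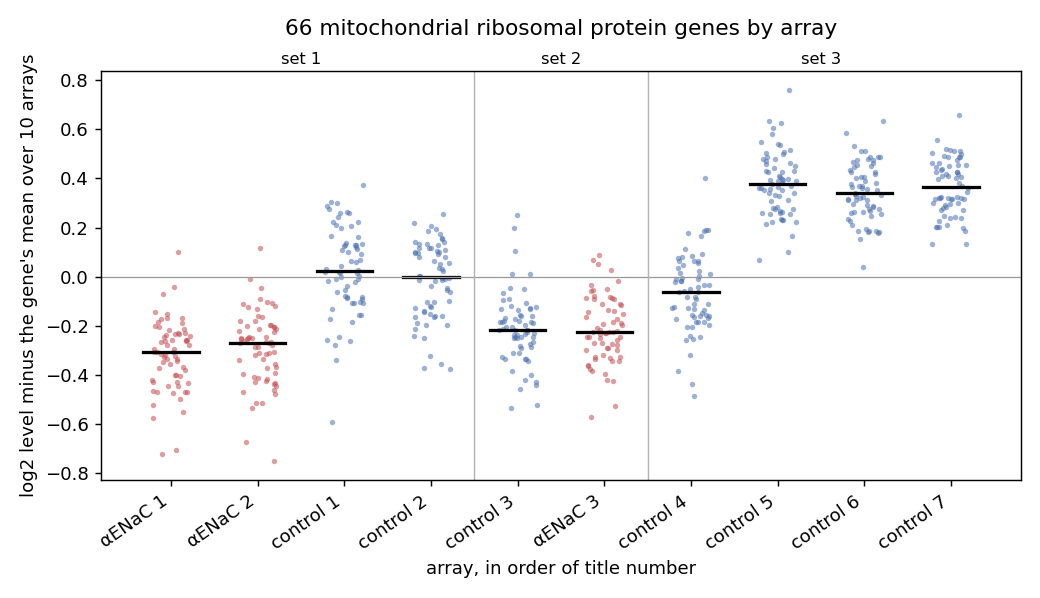
Each point is 1 of the 66 genes on 1 array, as its log2 level minus that gene's mean over the 10 arrays, and black lines are medians (red, αENaC; blue, vector control; arrays in order of title number). The medians run from −0.31 on αENaC 1 to 0.38 on control 5, and those of control 3 (−0.22) and αENaC 3 (−0.23) are nearly equal.

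With limma over all 5498 probe sets, none of the 66 was called lower and none higher at an adjusted p of 0.05, where 0.364% of all probe sets were called lower and 1.36% higher. The lowest adjusted p among the members was 0.0691. At an unadjusted p under 0.05, 42 members were lower, against 7.91% of all probe sets. On 15 members all 3 αENaC arrays lay below all 7 controls, against 3.62% of all probe sets. On 62 members the range over the 7 controls was wider than the difference between the groups, and the exceptions were RSM27, RSM19, MRPS17 and MRPL31. That was so for 94.9% of all probe sets. The count of members called lower turned on single arrays. It was 10 without control 3 (1.36% of all probe sets), 4 without control 4 (0.582%) and 3 without αENaC 3 (1.56%). With array weights it was 65, against 32% of all probe sets. Those weights gave αENaC 2 a weight of 12.5 and controls 5 to 7 5.06 to 6.11, while the 6 other arrays had 0.176 to 0.523.

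Among small subunit genes, RSM27 (mS33), a protein found only in mitochondrial ribosomes, had the largest difference of all 66. Its level was −0.66, −0.63 and −0.07 on the αENaC arrays, and on the controls it ran from −0.12 through a median of 0.17 to 0.55. The groups overlapped, since αENaC 3 lay above control 4. The difference was −0.71 ± 0.18 (SE, n = 3 and 7; adjusted p = 0.0801), or 1.64-fold lower. RSM19 (uS19m), the counterpart of a bacterial protein of the small subunit head, was at −0.99, −1.02 and −0.20 on the αENaC arrays and at −0.37 to 0.25 on the controls (median −0.07). Here αENaC 1 and 2 lay well below every control and αENaC 3 among them, and the difference was −0.67 ± 0.21 (adjusted p = 0.132). Its neighbour on the chromosome is another member, MRPS12 (uS12m), whose bacterial counterpart sits at the decoding centre. MRPS12 was at −0.29 ± 0.13 (adjusted p = 0.281), with αENaC 3 (1.66) between the control values of 1.58 and 2.06. They are the only members that adjoin each other in the RefSeq order of protein-coding genes.

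MRPS17 (uS17m) had the lowest adjusted p of the members. Its level was −0.26, −0.21 and −0.04 on the αENaC arrays against 0.17 to 0.75 on the controls (median 0.34). All αENaC arrays lay below all controls, with a gap between αENaC 3 and control 3, and the difference was −0.62 ± 0.15 (adjusted p = 0.0691). RSM25 (mS23), another protein specific to mitochondria, was at −0.75, −0.72 and −0.95 on the αENaC arrays and −0.62 to 0.08 on the controls (median −0.25). The groups were apart, and unlike in most members αENaC 3 was the lowest array. Its difference was −0.60 ± 0.15 (adjusted p = 0.0745). MRP21 (bS21m), whose mutants, like those of MRP51, alter translation of mitochondrial mRNAs, was also apart, at −0.37, −0.34 and −0.49 against −0.29 to 0.35 (difference −0.47 ± 0.15, adjusted p = 0.132). MRP51 (bS1m) was at −0.46 ± 0.14 (adjusted p = 0.132).

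Other small subunit genes had smaller differences or wider spreads. MRP1 (mS43) and RSM26 (mS42), which resemble manganese superoxide dismutase in sequence, were at −0.44 ± 0.22 and −0.42 ± 0.18 (adjusted p = 0.321 and 0.255). MRPS28 (uS15m) was at −0.41 ± 0.15 (adjusted p = 0.193). MRP17 (bS6m) was at −0.32 ± 0.14, MRPS5 (uS5m) at −0.31 ± 0.13 and MRP4 (uS2m) at −0.31 ± 0.20 (adjusted p = 0.275, 0.233 and 0.431). MRP10 (mS37), a small protein with paired cysteines that the Mia40 pathway imports, was at −0.31 ± 0.17 (adjusted p = 0.370). MRPS35 (mS45) was at −0.14 ± 0.14 (adjusted p = 0.647). RSM23 (mS29), the yeast relative of human DAP3, had the smallest difference of all members, −0.08 ± 0.19 (adjusted p = 0.860), with a 95% interval of −0.49 to 0.34. Its levels on αENaC 1 and 2 (0.58 and 0.59) were above those of controls 1 and 2 (0.46 and 0.48), and αENaC 3 (0.09) was above control 3 (−0.06). That interval leaves room for a difference of either sign.

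**Figure D2:**
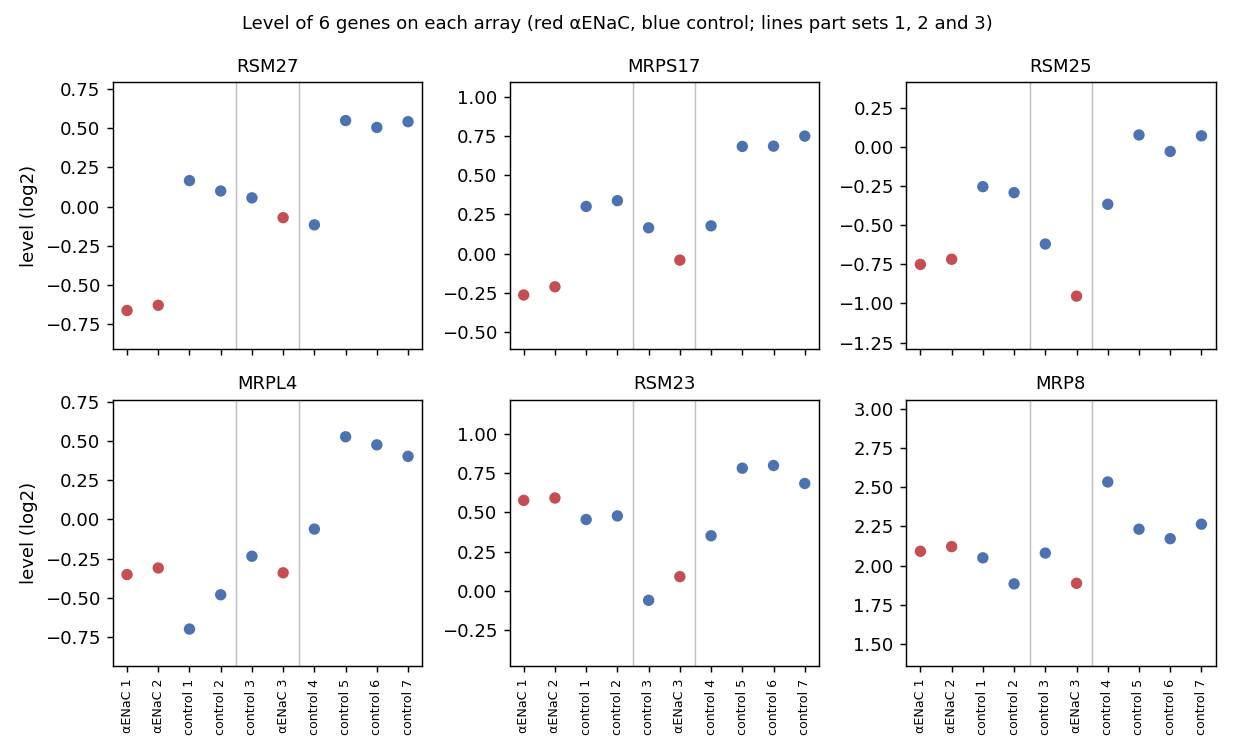
Level (log2, each panel spanning the same range) of 6 genes on the 10 arrays in order of title number, red for αENaC and blue for control. MRPS17 and RSM25 have every αENaC array below every control, RSM27 is low on αENaC 1 and 2, MRPL4 and RSM23 are higher on αENaC 1 and 2 than on controls 1 and 2, and MRP8 is highest on control 4 (2.53).

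In the large subunit, MRPL19 (uL11m) had the largest difference, −0.64 ± 0.27 (adjusted p = 0.251). Its level was −0.03, 0.01 and 0.32 on the αENaC arrays, 0.21, 0.18 and 0.37 on controls 1 to 3, and 0.72 to 1.31 on controls 4 to 7, so most of this difference came from the last 4 controls. MRPL20 (mL58) was at −0.55, −0.51 and −0.42 against −0.29 to 0.40, with the groups apart (difference −0.59 ± 0.16, adjusted p = 0.0881). MRPL24 (bL28m) was at −0.63, −0.55 and −0.76 against −0.45 to 0.23, also apart (difference −0.59 ± 0.15, adjusted p = 0.0765). These 2 genes were low on all αENaC arrays, αENaC 3 included. MRPL32 (bL32m), whose product must be trimmed by the m-AAA protease before ribosomes assemble, was at 0.13, 0.13 and 0.27 against 0.33 to 0.99 (median 0.66). Its groups were apart by a small gap between αENaC 3 and control 3, and the difference was −0.55 ± 0.14 (adjusted p = 0.0795), or 1.46-fold lower. MRPL49 (bL21m) was at −0.54 ± 0.20 (adjusted p = 0.185), and there αENaC 3 (0.43) lay above control 3 (0.21).

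Proteins around the exit of the peptide tunnel, where new chains leave the ribosome for the inner membrane, had 7 members, with a median of −0.36 and all below 0. MRP20 (uL23m), MRPL22 (uL22m) and MRPL4 (uL29m) are among them, with MRPL3 (mL44), a protein with a ribonuclease III fold. MRP20 was at −1.03, −1.05 and −0.86 on the αENaC arrays, close to controls 1 to 3 at −0.89, −0.87 and −0.75, and below controls 4 to 7 at −0.44 to −0.12. Its difference of −0.50 ± 0.19 (adjusted p = 0.212) was thus mostly one against set 3. MRPL22 was at −0.36 ± 0.13 (adjusted p = 0.185) and MRPL3 at −0.25 ± 0.15 (adjusted p = 0.405). MRPL4 was at −0.35, −0.31 and −0.34 on the αENaC arrays, above controls 1 and 2 (−0.70 and −0.48) and below controls 5 to 7 (0.40 to 0.53), so that its difference of −0.32 ± 0.26 (adjusted p = 0.541) averages opposite contrasts. Of the others, MRPL36 (bL31m) was at −0.46 ± 0.23 (adjusted p = 0.326), MRPL37 (mL54) at −0.40 ± 0.17 (adjusted p = 0.260), MRP7 (bL27m) at −0.24 ± 0.11 (adjusted p = 0.276) and MRP49 (mL61) at −0.19 ± 0.15 (adjusted p = 0.531).

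The 2 members without a ribosomal name differed from each other. RSM22 was at −1.93, −1.86 and −1.77 on the αENaC arrays and at −1.88 to −1.34 on the controls, a difference of −0.35 ± 0.12 (adjusted p = 0.169). MRP8 was at 2.09, 2.12 and 1.89 against 1.88 to 2.53, a difference of −0.14 ± 0.13 (adjusted p = 0.584), and it was the only member with its highest level on control 4. By class, the medians were −0.37 for both the small and the large subunit, −0.40 for the 40 proteins with a bacterial counterpart and −0.34 for the 24 specific to mitochondria. The ranges within these classes were far wider than the gaps between their medians, for instance −0.71 to −0.08 in the small subunit and −0.64 to −0.19 in the large.

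**Figure D3:**
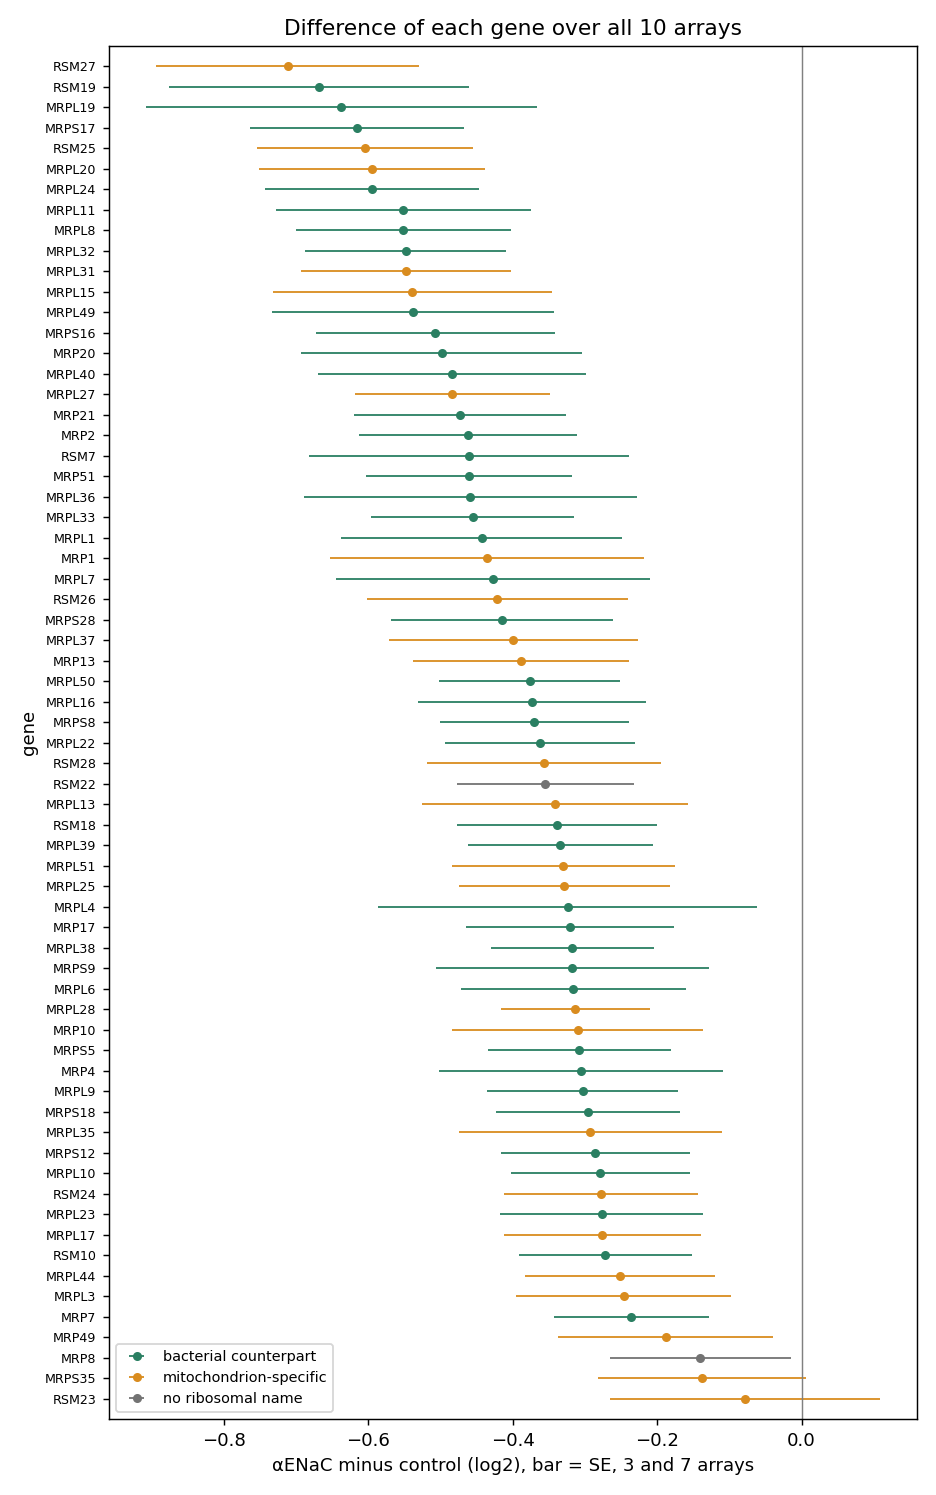
Difference between αENaC and control (log2, 3 and 7 arrays) for each of the 66 genes, with bars of 1 SE, coloured by whether the protein has a bacterial counterpart, is specific to mitochondria or has no ribosomal name. Every point lies below 0, from RSM27 at −0.71 to RSM23 at −0.08.

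Within set 1 most members were lower in αENaC, and within set 2 their differences lay around 0. In set 1, 62 of the 66 differences were below 0 (53.8% of all probe sets), with a median of −0.36 against −0.02 for all. On 59 members both αENaC arrays lay below both controls, against 44.6% of all probe sets. The limma fit within set 1 (2 against 2 arrays) called 54 lower and 2 higher, but it also called 31.8% of all probe sets lower and 28.4% higher, since near-identical arrays leave it a small spread. With the replicate number as a block, which leaves 1 residual degree of freedom, it called 51 lower, against 31.5% of all probe sets. It called 1 higher, for which the share of all probe sets was not counted. The largest set 1 differences were those of RSM27 (−0.78), MRPL37 (−0.68), RSM19 (−0.64) and MRPL20 (−0.64). Those above 0 were MRPL4 (0.26, adjusted p = 0.0281), MRP8 (0.14, adjusted p = 0.0996), RSM23 (0.12, adjusted p = 0.0379) and MRP4 (0.05, adjusted p = 0.387).

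In set 2, with 1 array a group and so no test, 35 of the 66 were lower in αENaC 3 than in control 3 (50.1% of all probe sets), and the median was −0.01 against 0.00 for all. The median was 0.09 without normalization between arrays, where that of all probe sets was 0.07. Differences of at least 0.2 were few: 4 members were that much lower and 6 that much higher, against 20.7% of all probe sets in each direction. The lower ones were RSM25 (−0.33), MRPL24 (−0.31), MRPS17 (−0.21) and MRPL37 (−0.20), all of them low in set 1 too. The higher ones included MRP10 (0.34), MRP49 (0.25), MRP17 (0.23) and MRPL49 (0.22). In all, 32 members were lower in both sets, 30 were lower in set 1 and higher in set 2, 3 the reverse, and only RSM23 was higher in both.

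**Figure D4:**
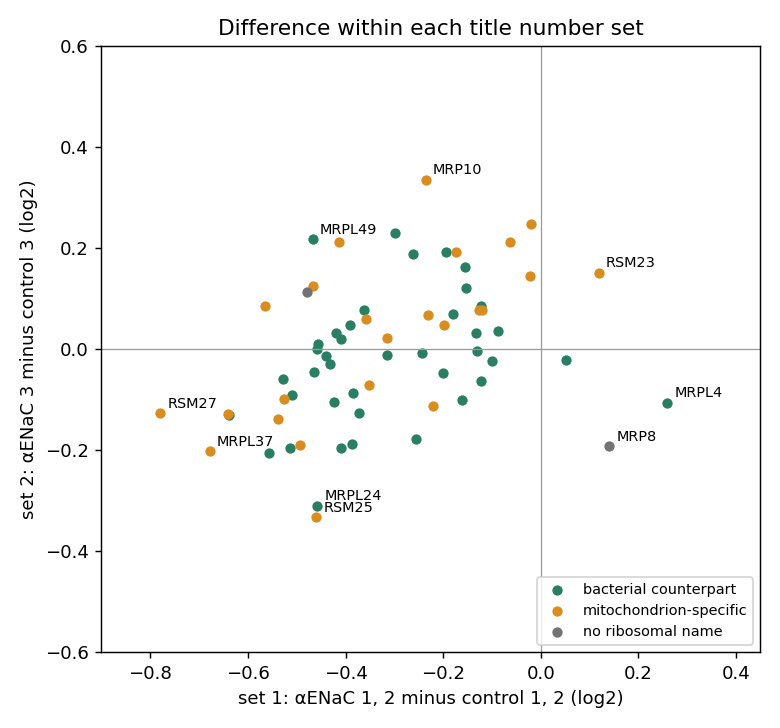
Difference within set 1 (2 αENaC minus 2 control arrays) against that within set 2 (1 minus 1 array) for each of the 66 genes, both log2. The cloud lies left of 0 on the set 1 axis (62 genes) and is spread around 0 on the set 2 axis (35 genes below), with MRPL4, MRP8, MRP4 and RSM23 to the right.

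The difference between the sets was tested itself, as the interaction of group and set over all 10 arrays. On 63 members the set 2 difference was above the set 1 difference, against 51.7% of all probe sets. None passed at an adjusted p of 0.05 with limma, against 17.4% of all probe sets. At an unadjusted p under 0.05 there were 6, a cut that at least those 17.4% also pass. RSM22 had the lowest adjusted p, 0.0755, for a set 2 difference 0.59 ± 0.20 (SE) above that in set 1, and MRP10 followed at 0.57 ± 0.20 (adjusted p = 0.0835). This result turned on set 3, where control 4 widens the spread. Without control 4, 45 members passed, 44 of them with the set 2 difference above that in set 1, but 45% of all probe sets passed as well. With the replicate number as a block, which leaves out set 3, 44 members and 46% of all probe sets passed. That fit has 1 residual degree of freedom, drawn from the near-identical arrays of set 1.

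With the set as a fixed block, which drops set 3 from the contrast and keeps it in the spread, the median of the 66 was −0.22 against −0.02 for all, and 59 were below 0 (53.7% of all probe sets). RSM25 was the 1 member called lower, at −0.42 ± 0.11 (adjusted p = 0.0434), and none was called higher, against 6.86% and 7.38% of all probe sets. That call was lost with each array centred on its median, without normalization between arrays, on the deposited z scores, with all probe sets tested, under the replicate block (adjusted p = 0.146), and without any 1 of αENaC 1 and 2 and controls 1, 2, 5, 6 and 7. The count was 26 without control 4 (13% of all probe sets), and 16 without control 3 or without αENaC 3 (17.6% in both). With the set as a random block 2 members were called lower, RSM25 and MRPL24 (−0.44, adjusted p = 0.0379), against 4.71% of all probe sets.

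Levels of the members varied among the controls. On 62 members the control range exceeded the group difference, as it did on 94.9% of all probe sets. A range over 7 arrays and a difference of means are unlike measures. The range over the 7 controls had a median of 0.66 over the members, from 0.43 to 1.23, against 0.51 for all probe sets. On 55 members controls 5 to 7 all lay above controls 1 to 3, against 20.4% of all probe sets. On 65 members control 4 lay below controls 5 to 7 (41.6% of all probe sets), by a median of −0.44, although its title number adjoins theirs. On 53 members control 3 lay below controls 1 and 2 (49.3%). The highest of the 10 arrays was control 5, 6 or 7 on 59 members, against 13.3% of all probe sets. The lowest was an αENaC array on 45 (29.2%), control 3 on 13 and control 4 on 5. With set 3 left out, 59 of the 66 were below 0 (53.7% of all probe sets) and the median difference was −0.22, against −0.37 with it. That contrast weights set 1 more, since set 2 has 1 array a group, and the set 2 median was −0.01.

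Other genes of the mitochondrial ribosome had differences like those of the members. Over all arrays the medians of the cytosolic ribosome and of the respiratory chain were nearer 0. Of 16 further proteins of the mitochondrial ribosome whose platform symbols the rule does not match, 14 were measured. None was called, 14 were below 0 and the median was −0.49, with −0.31 within set 1 and −0.05 within set 2. MHR1 (mL67), known also for mitochondrial DNA recombination, was at −0.56 ± 0.14 (adjusted p = 0.0787), PET123 (mS26) at −0.64 ± 0.17 (adjusted p = 0.0909) and MNP1 (bL12m) at −0.58 ± 0.17 (adjusted p = 0.108). Cytosolic ribosomal protein genes (127 measured, none called) had a median of −0.06, with −0.09 in set 1 and −0.00 in set 2. Small as these differences were, 105 of the 127 were below 0 over all arrays and 118 within set 1. The 35 genes of the respiratory chain and ATP synthase, whose products join those of mitochondrial translation, had a median of 0.03, with 16 below 0, 0.06 in set 1 and 0.44 in set 2. With the set as a block the respiratory chain median was 0.20, against −0.22 for the members. The test between the sets called 15 of these 35 genes, where it called 17.4% of all probe sets.

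The median group differences of growth and stress markers had opposite signs in sets 1 and 2. Ribosome biogenesis genes (53 measured, none called over all arrays) follow growth rate. Within set 1 all 53 were below 0 (median −0.51), against 53.8% of all probe sets. Within set 2 all 53 were above 0 (median 0.27), where 50.1% of all probe sets were below 0. Their median was 0.02 over all arrays, and 18 passed the test between the sets, against 17.4% of all probe sets. General stress genes, known as targets of Msn2 and Msn4 (21 measured, none called over all arrays), had medians of 1.22 in set 1, −0.44 in set 2 and 0.33 over all arrays. Of these, 17 passed the test between the sets, against the same 17.4% of all probe sets. With the set as a block, 3 were called higher (7.38% of all probe sets): PNC1, HSP12 and SOD2. The median level of the general stress genes relative to the mean over arrays was −0.95 or lower on controls 1 and 2. Those of the mitochondrial ribosomal protein genes there were 0.02 and −0.00. The part of these states in the differences of the members was not tested.

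**Figure D5:**
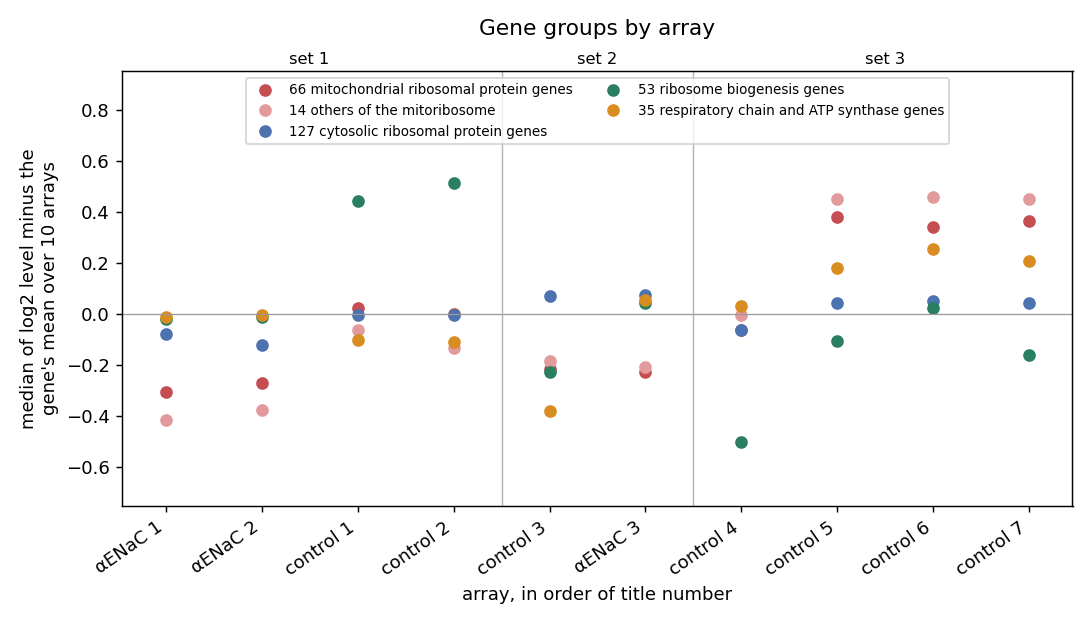
Median over the genes of a group of the log2 level minus the gene's mean over the 10 arrays, by array in order of title number. The 66 mitochondrial ribosomal protein genes and the 14 others of the mitoribosome are highest on controls 5 to 7 (0.34 to 0.38 and 0.45 to 0.46), ribosome biogenesis genes on controls 1 and 2 (0.44 and 0.51), and cytosolic ribosomal protein genes stay between −0.12 and 0.07.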

How the data were processed

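The deposited values are scores. Judged by the columns themselves they are z scores, since every array has mean 0 and SD 1 across its 10715 probe sets, and their skew is that of intensities that were not logged. The authors' summary of the probes is not stated in the labels. Scores were shifted so that each array's lowest was 0, divided by the size of that lowest score (units of the array mean, any additive background unknown), and log2(value + 0.03) was quantile normalized. Differences are on this scale and understate the change of low genes. Levels of different probe sets were not compared. Names came from the platform annotation through the R64 RefSeq table, and 1746 probe sets named outside S. cerevisiae gave the background level (95th percentile, −2.03).

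The test was limma 3.58.1 under R 4.3.3, 2-sided and without covariates, with 8 residual degrees of freedom. Its p-values were adjusted by Benjamini-Hochberg over 5498 probe sets and read at 0.05. Members of a list have 1 probe set a gene, the one with the smallest p. The members, lists and tests were chosen with earlier results of these data known, so no list was tested. Genes named are the 6 largest and 6 smallest differences, the 4 at each end within sets 1 and 2, 19 genes chosen for their roles, up to 3 genes with the smallest p of the other lists, and a few regulators and factors. Those named beside a small count, such as MRPL31, were chosen after their values were seen. Across probe sets, same-numbered αENaC and control arrays deviated together from their groups (r = 0.41, 0.22 and 0.17). Numbers 1 and 2 lie in set 1 and number 3 in set 2, so a shift shared by a set would also give such correlations. They cannot show that the numbers pair the arrays, and the replicate number served as a block in alternatives alone. The fits were tested on simulated data. Alternatives changed the scaling, pseudocount, filter, probe sets tested, variance model, blocks, weights and arrays.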

Additional observations from a re-analysis of the deposited data

Results flagged for a closer look

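MRPL37, a large subunit protein found only in mitochondria, had 1 control array far from the others. Its level on control 4 was −0.39, against 0.27 to 0.36 on the other 6 controls, a gap of 0.892 of the whole range. Of 32 levels examined in this way, it was the 1 past Dixon's critical value for 7 arrays, and chance passes about 5% of them. Control 4 was near αENaC 1 and 2 (both −0.35), and without it MRPL37 was at −0.50 (adjusted p = 0.0489; 8.99e-06 to 0.998 over 24 alternatives).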

How the results depend on the processing

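The median over the members stayed below 0 under every alternative run, from −0.60 with array weights to −0.21 without normalization between arrays, where the median of all probe sets was 0.16 and the members lay at −0.36 relative to it. On the deposited z scores it was −0.0914, in z units. It was −0.42 to −0.33 with each array left out in turn, −0.26 with near-identical arrays averaged, −0.37 without MRP8 and with the other mitoribosomal genes added, and −0.22 with the replicate block (3 against 3 arrays, 2 residual degrees of freedom), where 0 members and 0% of all probe sets were called lower and the lowest adjusted p of all was 0.0951. No member was called over all 10 arrays, nor with the replicate block on 3 against 3 arrays, where no probe set at all was called. These 2 fits differ in the block, in the arrays and in the residual degrees of freedom. The set-blocked count of 1 became 0 with the replicate block, which also leaves out set 3. Added after the data were seen, the replicate block within set 1 gave 51 members lower and 1 higher, against 31.5% of all probe sets lower. In the test between the sets 44 members passed with it, against 46% of all probe sets. Members called lower numbered 1 and 2 with the set as a fixed and a random block (6.86% and 4.71% of all probe sets). They numbered 65 with array weights (32%) and 0 to 10 with each array left out, the 10 being without control 3 (1.36%). With the set as a block, members called lower numbered 0 with median centring, without normalization, on the z scores and with all probe sets tested. With each array left out that count was 0 to 26, the 26 being without control 4 (13% of all probe sets). Members called higher within set 1 numbered 1 with median centring, 0 with all probe sets tested and 0 to 2 with each array left out. Members called for the difference between the sets numbered 1 without normalization and 0 to 45 with each array left out. The 45 were without control 4, where 45% of all probe sets were called. Where a count here has no share beside it, the share of all probe sets in that setting was not counted. Such a count cannot be read as a result about the members.

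Of 744 values of the 31 named members under 24 alternatives, 671 kept direction and call, 44 newly passed and 29 turned above 0. With the set block, the replicate block and without set 3 alike, RSM23 turned to 0.129, MRPS35 to 0.0284, MRP49 to 0.0696, MRP8 to 0.0289, MRPL4 to 0.138 and MRP4 to 0.0267. These 3 settings leave the controls of set 3 out of the contrast. With the random block RSM23 turned to 0.0959, MRPS35 to 0.00346, MRP49 to 0.0345, MRP8 to 0.00571 and MRPL4 to 0.0779. Without normalization RSM23 and MRPS35 turned to 0.0815 and 0.0695, and on the z scores RSM23, MRPS35 and MRP49 to 0.0829, 0.0104 and 0.00486. RSM23 ran from −0.172 to 0.086 with each array left out, and was above 0 without αENaC 3 alone. The cause of the other turns was not tested. No member lay below background on average.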

Other observations

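Of 61 genes in 5 lists that serve the mitochondrial ribosome from outside, 45 were below 0, against 46.2% of all probe sets. None of the 61 passed the limma test over all arrays. In the fit that blocks on the set, lower calls went to 5 of the 61 genes (8.2%), a share near the 6.86% of all probe sets: the initiation factor gene IFM1 (−0.39, adjusted p = 0.0466), GTF1 (−0.20, adjusted p = 0.0408), the gene SOV1 (−0.33, adjusted p = 0.0434), MGM101 (−0.24, adjusted p = 0.0471) and the DNA helicase gene PIF1 (−0.26, adjusted p = 0.0195). The 11 mitochondrial translation factors were all below 0, with a median of −0.21, against −0.22 within set 1 and −0.00 within set 2. Among them IFM1 was at −0.40 ± 0.14 (adjusted p = 0.166), the ribosome recycling factor gene RRF1 at −0.51 ± 0.19 (adjusted p = 0.183), the elongation factor gene TUF1 at −0.28 ± 0.14 (adjusted p = 0.311) and MEF1 at −0.02 ± 0.20 (adjusted p = 0.976). The 16 genes that charge mitochondrial tRNAs had a median of −0.12, with 11 below 0. GTF1, a subunit of the enzyme that makes glutaminyl-tRNA, was at −0.40 (adjusted p = 0.107), the seryl-tRNA synthetase gene DIA4 at −0.43 (adjusted p = 0.166) and MSK1 at −0.21 (adjusted p = 0.201).

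The 18 translational activators and membrane insertion factors had a median of −0.12, with 12 below 0. The COX1 activator gene MSS51 was at −0.38 (adjusted p = 0.142), the COX3 activator gene PET122 at −0.40 (adjusted p = 0.147) and the COX2 activator gene PET111 at −0.39 (adjusted p = 0.201). The 5 ribosome assembly genes had a median of −0.13, with the rRNA methyltransferase gene MRM1 at −0.46 (adjusted p = 0.129), the GTPase gene MTG2 at −0.28 (adjusted p = 0.150) and MRM2 at 0.14 (adjusted p = 0.328). The 11 genes of mitochondrial DNA maintenance and transcription had a median of −0.06, with MGM101 at −0.23, SUV3 at −0.28 and MIP1 at −0.40 (adjusted p from 0.110 to 0.390).

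The 10 regulators had a median of −0.06. PUF3, whose product binds mRNAs of mitochondrial ribosomal proteins, was at −0.44 ± 0.28 (adjusted p = 0.421). Its differences were 0.04 in set 1 and −0.17 in set 2. HAP4, an activator of respiratory genes, was at −0.03 ± 0.26 (adjusted p = 0.962), but in the fit that blocks on the set it was called higher, at 0.44 (adjusted p = 0.0481). HAP5 was at −0.22 and HAP2 at −0.20 (adjusted p = 0.193 and 0.434).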
